A study of Homo sapiens with 8 samples.

Results

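The complement genes described here are 9: C3, C5, CFB, CFI, C1S, C1R, CD55, CD59 and CD46. They were chosen by name, each read from the probe set annotated to that symbol alone with the highest mean over the 8 arrays, out of 18244 genes measured, and all 9 were among the 11926 genes tested. RNA came from the human lung adenocarcinoma lines HCC827, which carries an activating EGFR mutation, and A549, which does not, and each combination of line, culture and treatment had 1 array. Cells were grown in 3D, from 100000 cells on a collagen scaffold for 14 days, or in 2D, from 200000 cells in dishes of 21 square centimetres for 7 days. Gefitinib, which blocks the EGFR kinase, was used at 1 µM, and control cultures went without it. The 3D cultures had it from day 11 for their last 3 days; the labels also give a start after 4 days under the name 3D, read here as the 2D start. The 3D samples were lysed with beads and extracted with a micro kit and the 2D samples with a mini kit, so culture, time and RNA preparation cannot be told apart. The design compared the lines, the cultures and gefitinib. Values are log2 signals, so a difference of 1 is a doubling.

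Complement is a cascade of plasma and cell-surface proteins. C1r and C1s are the serine proteases of the classical pathway's C1 complex, factor B supplies the protease of the alternative pathway, and both routes cleave C3 and then C5. Factor I, a soluble protease, inactivates C3b and C4b with the help of cofactors such as CD46, while CD55 speeds the decay of the convertases and CD59 blocks the membrane attack complex. The liver makes most plasma complement, and airway and alveolar epithelial cells also make several of these proteins. Tumour cells commonly carry the 3 membrane regulators.

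The line markers matched the labels: CDKN2A, a cell cycle inhibitor locus deleted in A549, was higher in HCC827 by 6.19 ± 0.10 (standard error of the fit, as for every ± beside a difference), and EGFR by 2.62 ± 0.21. CDKN2A was above the array median on the HCC827 arrays alone, so the filter on low values took it through that line. EGFR was above it on all 8 arrays. All 6 epithelial markers lay above the array median on all 8 arrays. Of the markers of other cell types, 4 of 6 for fibroblasts, 2 of 6 for leukocytes and 2 of 5 for endothelial cells, PTPRC and CDH5 among them, were above the median on no array, while CD68, a macrophage marker that other cells also express, was above it on all 8. Some of these markers passed the tests used below. CD14 (-1.64, adjusted p = 0.000586) and LYZ (-1.37, 0.00118) were lower in HCC827 and COL1A1 (0.30, 0.0195) and KDR (0.45, 0.0275) higher. CD14 and LYZ were above the array median on A549 arrays alone, and COL1A1 and KDR on HCC827 3D arrays alone. The filter on low values therefore took each of these through the line where it was higher. In 3D, as means over both lines, LUM (-1.87, 0.03) and the epithelial EPCAM (-1.04, 0.00815) were lower. COL1A1 (0.33, 0.0176) and PECAM1 (0.37, 0.0233) were higher. The EPCAM difference was -1.95 in A549 (adjusted p = 0.018) and -0.14 in HCC827 (0.622). COL1A1 and PECAM1 were above the array median on 3D arrays alone, so the filter took them on 3D values. The part of these markers in the complement values was not tested. Their list means were 6.48 to 6.84 on the 3D arrays and 6.63 to 7.17 on the 2D arrays for fibroblasts, 6.97 to 7.60 and 6.94 to 7.36 for leukocytes, and 6.85 to 7.18 and 6.84 to 6.91 for endothelial cells. The RNA differed with culture. The actin 3' minus 5' difference, a measure of RNA integrity, was 1.67 to 2.64 on the 3D arrays and -0.14 to -0.05 on the 2D arrays (exact permutation test, two-sided, p = 0.0286; no smaller p is possible with 70 splits). Genes induced by ERK differed in opposite directions in the gefitinib pairs of HCC827: DUSP6 stood at -3.32 in 3D and at 3.64 in 2D (gefitinib array minus control array). The 2D arrays of HCC827 are therefore named by their labels, and every standard error and p-value of the fit depends on them. Fewer cells expressing a gene and less RNA per cell cannot be told apart in such bulk samples.

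The lines differed most in the central components and the C1 proteases, all lower in HCC827. C3, on which the pathways converge, stood at 7.51 and 7.47 on the gefitinib and control arrays of HCC827 3D and at 7.45 and 8.29 on those of HCC827 2D, against 13.67 and 13.72 in A549 3D and 12.41 and 12.29 in A549 2D. The highest HCC827 array lay about 4 log2 units under the lowest A549 array. The mean difference was -5.34 ± 0.17, or 40.6-fold (adjusted p = 0.000291). On the HCC827 arrays other than the 2D control, C3 lay little above the array median. The processed values carry no detection call, so this fold change has no stated floor. C5, the source of the C5a peptide and the first protein of the attack complex, stood at 6.84 and 6.61 in HCC827 3D and at 6.34 and 6.19 in HCC827 2D, against 11.65 and 11.09 in A549 3D and 10.89 and 10.64 in A549 2D. Its difference was -4.57 ± 0.09 (adjusted p = 0.000145). On all 4 HCC827 arrays C5 lay below the array median of 7.27 to 7.33 and near the background probe sets, whose array medians were 5.99 to 6.12. The fold change of C5 has no stated floor either, and C5 passed the filter on low values through its A549 arrays alone, so it had to differ.

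C1S and C1R are neighbours with 0 annotated genes between them in RefSeq (GRCh38.p14), and their values moved together. C1S stood at 8.03 and 8.09 (gefitinib, control) in HCC827 3D and 7.65 and 9.14 in HCC827 2D, against 11.78 and 11.67 in A549 3D and 11.55 and 10.89 in A549 2D. C1R stood at 9.36 and 9.45 in HCC827 3D and 8.51 and 9.89 in HCC827 2D, against 12.21 and 11.97 in A549 3D and 11.63 and 10.82 in A549 2D. Neither gene overlapped between lines, and each had its HCC827 maximum on the array labelled 2D control. Over the 12 pairs of arrays that differ only in line, culture or treatment, the sign of the C1S and C1R differences was the same in 12. These pairs reuse the 8 arrays, and no share for other gene pairs was counted. The count holds for the C1R probe set used: the others stood at 0.21 and 0.04 in the HCC827 3D gefitinib pair, where C1S stood at -0.06. Between lines the differences were -3.25 ± 0.27 for C1S (adjusted p = 0.00192) and -2.35 ± 0.25 for C1R (0.00339). The 3 C1R probe sets gave -2.35, -2.22 and -2.14. A second C1S probe set, shared with EMG1, was left out.

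The regulators differed less and not all in 1 direction. CD55, the decay-accelerating factor, stood at 10.05 and 9.59 in HCC827 3D and 9.49 and 9.88 in HCC827 2D, against 11.44 and 11.83 in A549 3D and 11.55 and 11.98 in A549 2D, with no overlap. It was lower in HCC827 by a difference of -1.94 ± 0.17 (adjusted p = 0.002), and 6 of its 7 probe sets lay below 0; the dimmest stood at 0.38. CD59 was also lower, at -0.65 ± 0.09 (adjusted p = 0.00587), but its values overlapped, with 9.996 to 11.15 in HCC827 and 11.12 to 11.38 in A549. CFI, factor I, was higher in HCC827 by 1.28 ± 0.20 (adjusted p = 0.00937). That mean joined unlike cultures: the HCC827 minus A549 difference was 2.93 and 2.55 in the gefitinib and control pairs of 3D, and -0.76 and 0.37 in those of 2D. On its brightest probe set CD46 stood at 12.35 to 12.98 in HCC827 and 12.68 to 12.82 in A549. It differed by -0.11 ± 0.11 (0.446) and CFB by 0.46 ± 0.16 (0.0733), and neither passed the threshold, an adjusted p under 0.05 from limma. With the mean of its probe sets CFB did (0.47, adjusted p = 0.0464), and CFI lost its call in a fit without interactions (1.28, 0.113).

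By that test 7 of the 9 genes passed between lines, 1 higher and 6 lower in HCC827, where 48.1% of all tested genes passed, 22.0% higher and 26.1% lower. Their median difference was -1.94, against -0.03 over all tested genes. The lines did not overlap in 5 of 9, against 32.6% of tested genes. Leaving out C5, which the filter took on A549 values, 6 of 8 passed, 1 higher and 5 lower, and 4 of 8 did not overlap. Without the HCC827 2D arrays, a setting added after the data were seen that compares the lines in 3D alone, 8 of 9 passed. The spread then came from A549 alone, and the share of all tested genes passing in that setting was not counted. The 8 of 9 cannot be set against the 48.1%. CFB passed, still higher in HCC827, without any 1 of the HCC827 3D gefitinib, 3D control, 2D gefitinib or 2D control arrays (0.32 to 0.61), and CD46, lower, without the HCC827 3D control or 2D gefitinib array (-0.22). CD59 lost its call without any 1 of the 4 A549 arrays (-0.66 to -0.64, adjusted p up to 0.109), and CFI without the A549 3D gefitinib or the A549 2D control array (1.12 each, 0.0765 and 0.0772).

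**Figure D1:**
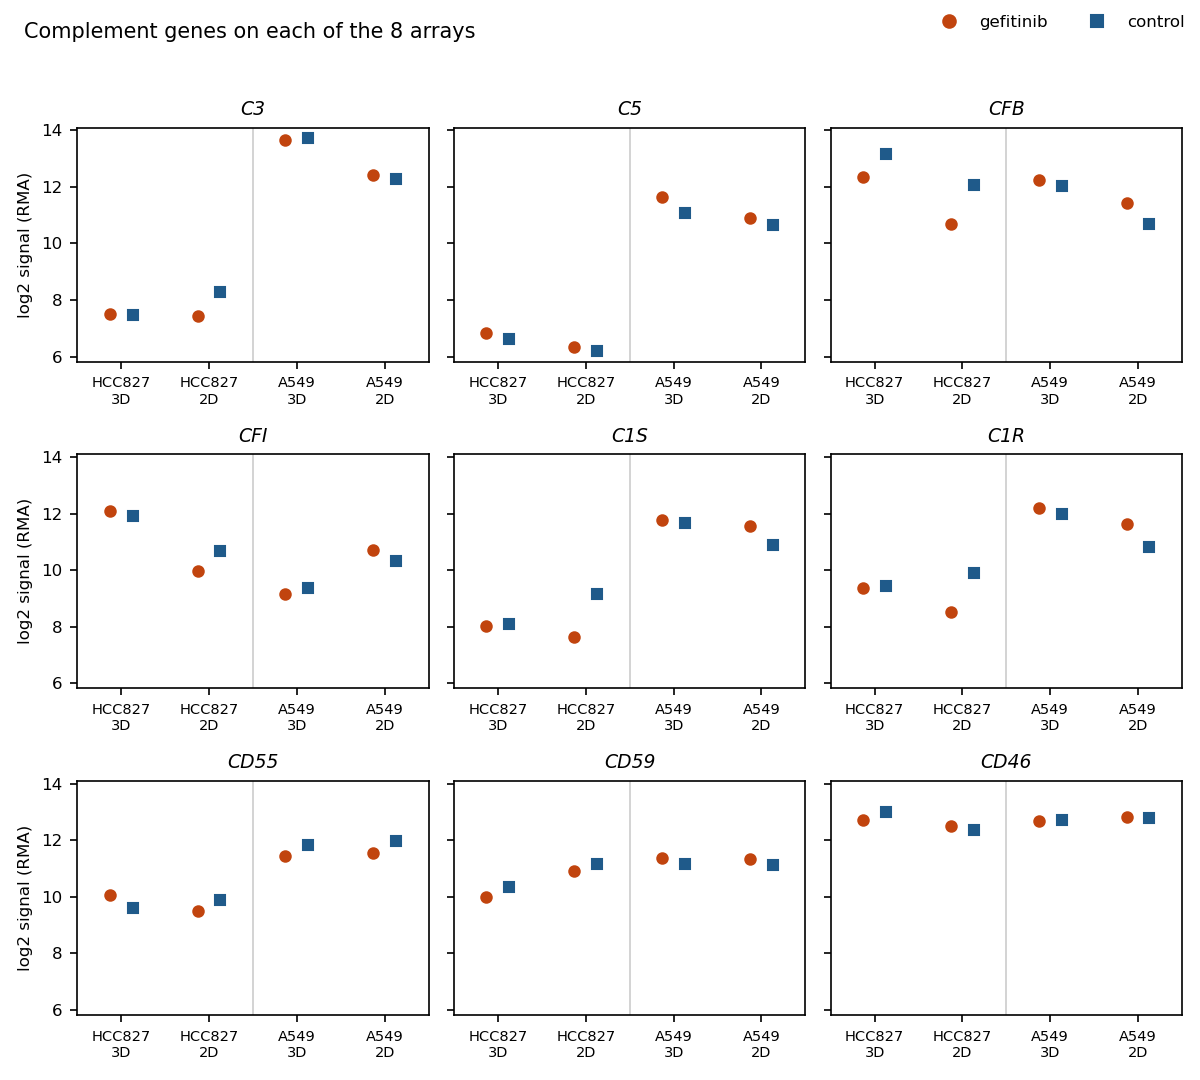
Log2 signal (vertical axis) of the 9 complement genes on each array, by line and culture (horizontal axis), with circles for gefitinib and squares for control and 1 array per point. C3, C5, C1S, C1R and CD55 are lower on all HCC827 arrays than on all A549 arrays, and CFI is high in HCC827 3D and low in A549 3D.

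CFD, VTN, C4BPA and CLU were lower in HCC827 too. Of 44 further complement genes measured on 4 lists, 14 were tested and the other 30 were set aside by the filter, which asks for a level above the array median on at least 2 arrays. Between lines 1 of the 14 was higher in HCC827 and 4 were lower, against 22.0% and 26.1% of all tested genes. CFD, the alternative pathway protease that cleaves factor B, stood at 7.54, 7.67, 7.26 and 6.93 on the HCC827 arrays (3D gefitinib, 3D control, 2D gefitinib, 2D control), against 12.73, 12.64, 11.76 and 11.05 on the A549 arrays in that order. Its difference was -4.69 ± 0.16 (adjusted p = 0.000291). Also lower in HCC827 were VTN, vitronectin, an inhibitor of the attack complex, at -3.66 ± 0.15 (0.000391), C4BPA, the alpha chain of the C4b-binding protein, at -3.42 ± 0.17 (0.000612), and CLU, clusterin, another inhibitor of that complex, at -3.26 ± 0.62 (0.0151). ITGB2, the beta chain of the leukocyte complement receptors, was higher at 1.34 ± 0.12 (0.00222). ITGB2 was above the array median on the 4 HCC827 arrays alone, so the filter took it on 1 line's values. Some HCC827 values lay below the array median: CFD in 2D, VTN in 3D (7.15 and 7.19), and C4BPA in 3D gefitinib (6.70) and 2D (6.50 and 6.26). The fold changes of these 3 genes have no stated floor either. CLU varied within HCC827 (9.71, 7.99, 8.01 and 9.90), high on the 3D gefitinib and the 2D control array. Of the subunits of C1q, C1QA, C1QB and C1QC lay above the array median on 0 arrays, as did C6, C7, C8A, C8B and C9 of the attack complex and the plasma C1 inhibitor SERPING1.

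**Figure D2:**
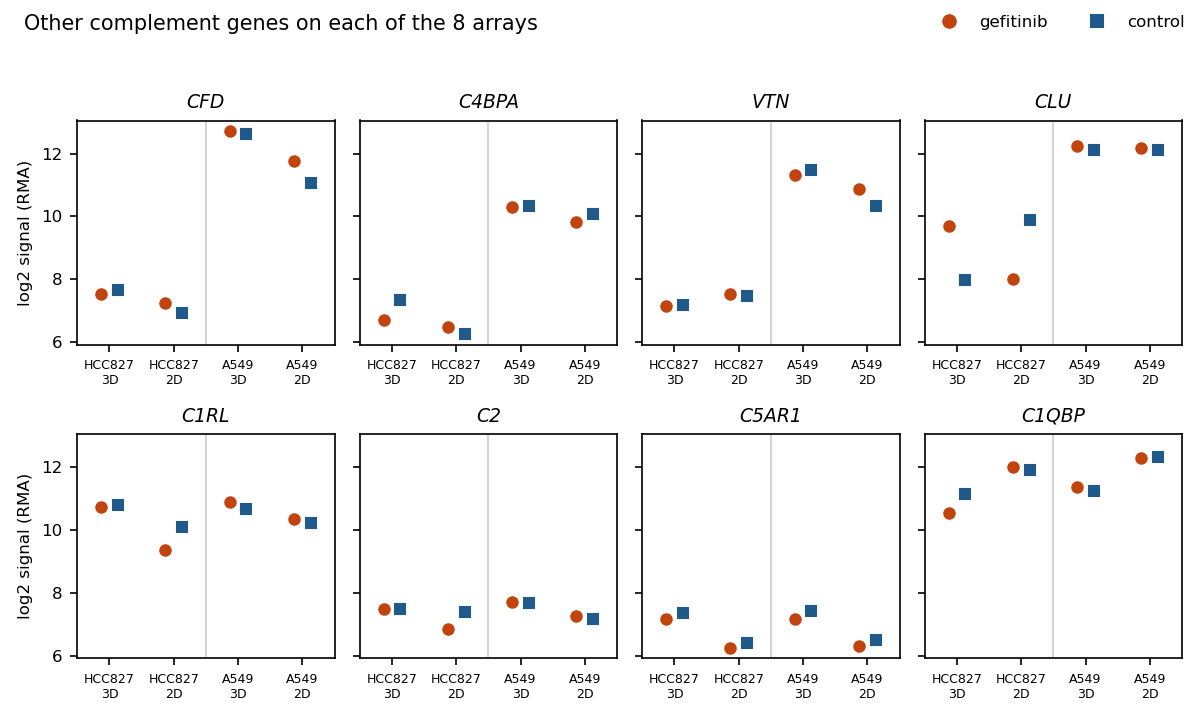
Log2 signal (vertical axis) of 8 further complement genes on each array, by line and culture (horizontal axis), with circles for gefitinib, squares for control and 1 array per point. CFD, C4BPA, VTN and CLU are lower on every HCC827 array than on every A549 array, while C5AR1 is higher and C1QBP lower on all 3D arrays than on all 2D arrays.

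Between 3D and 2D culture, CFB and C5 were higher in 3D and CD59 was lower, as means over both lines. The CD59 call was lost with cyclic loess (-0.28, adjusted p = 0.0615) and in the fit without interactions (-0.41, 0.156), and 1 of its 3 brightest probe sets stood at 0.37. CFB, factor B, stood at 12.33 and 13.16 (gefitinib, control) in HCC827 3D, against 10.68 and 12.08 in HCC827 2D, and at 12.24 and 12.05 in A549 3D, against 11.43 and 10.68 in A549 2D. Within each line both 3D arrays lay above both 2D arrays. The difference was 1.37 ± 0.22 in HCC827 (adjusted p = 0.0187), 1.09 ± 0.22 in A549 (0.0388) and 1.23 ± 0.16 over both (0.00754). This call rests on the probe set: the 4 CFB probe sets gave 1.37, 0.49, -0.42 and 0.11 in HCC827 and 1.09, -0.13, -0.93 and 0.04 in A549, in falling order of mean signal. With the mean of the 4, CFB stood at 0.20 over both lines (adjusted p = 0.264).

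The window before the CFB start is shown with those of C1R and CFI, since these 3 genes followed different courses across culture and treatment. The sequences are the 250 bases before the RefSeq start (GRCh38.p14), 5′ to 3′ on the gene's strand: chr6:31945845-31946094 on the plus strand for CFB, and chr12:7092446-7092695 and chr4:109802000-109802249 on the minus strand for C1R and CFI. For C1R the first of its listed starts was used. Capitals mark matches to the NF-kB letters GGG, 5 of any base and CC, the interferon element core GAAA, 2 of any base and GAAA, the STAT element GAS TTCNNNGAA and C/EBP TTNNGNAA, searched on both strands, where N is any base; adjoining capitals in CFB are overlapping matches.
CFB: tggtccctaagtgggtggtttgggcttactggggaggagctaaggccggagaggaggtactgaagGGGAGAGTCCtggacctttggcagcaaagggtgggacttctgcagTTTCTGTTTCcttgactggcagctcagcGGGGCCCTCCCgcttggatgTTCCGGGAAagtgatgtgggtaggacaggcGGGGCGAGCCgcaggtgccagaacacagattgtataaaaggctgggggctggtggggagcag
C1R: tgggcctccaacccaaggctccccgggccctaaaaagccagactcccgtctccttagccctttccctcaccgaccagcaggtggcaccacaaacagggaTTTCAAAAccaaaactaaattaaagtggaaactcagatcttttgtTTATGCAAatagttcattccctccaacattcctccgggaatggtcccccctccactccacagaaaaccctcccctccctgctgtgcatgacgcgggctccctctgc
CFI: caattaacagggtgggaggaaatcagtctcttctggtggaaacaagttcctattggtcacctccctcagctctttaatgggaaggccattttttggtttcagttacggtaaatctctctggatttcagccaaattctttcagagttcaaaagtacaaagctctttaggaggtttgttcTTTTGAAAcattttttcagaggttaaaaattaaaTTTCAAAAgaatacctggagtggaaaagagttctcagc
The CFB window held the TTCNNNGAA match TTCCGGGAA, the interferon core on the opposite strand as TTTCTGTTTC, and overlapping NF-kB matches. Of 27305 promoters of this length, 6.78% held TTCNNNGAA, 3.07% the interferon core, 53.73% the NF-kB letters and 33.63% TTNNGNAA. The C1R and CFI windows held 2 TTNNGNAA matches each and none of the other motifs. The window at the other C1R start held TTCNNNGAA, TTNNGNAA and an NF-kB match. CD59 also had a TTCNNNGAA match, and CD55, CD46, CD59 and C5 had NF-kB matches. These are matches of letters, not sites. Promoters were listed for 7 of the 9 genes; C3 and C1S had none in the table.

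C5 was higher in 3D by 0.53 ± 0.09 over both lines (adjusted p = 0.0142), by 0.60 ± 0.13 in A549 (0.0429) and by 0.46 ± 0.13 in HCC827, where it did not pass (0.0604) and where its level was near background. C3 rose in A549 by 1.34 ± 0.25 (adjusted p = 0.0319), and stood at -0.38 ± 0.25 in HCC827 (0.290), where its control pair differed by -0.82 and its gefitinib pair by 0.06. CFI went in opposite directions. It rose in HCC827 3D, by 1.68 ± 0.29 (adjusted p = 0.0201), with 12.09 and 11.91 in 3D against 9.96 and 10.68 in 2D. It fell in A549 3D, at -1.26 ± 0.29 (0.0467), with 9.16 and 9.36 in 3D against 10.72 and 10.31 in 2D. Both CFI probe sets showed this, at 1.68 and 0.80 in HCC827 and -1.26 and -2.18 in A549. The difference between lines itself, the culture by line interaction, was 2.94 ± 0.41 (unadjusted p = 0.00138) and did not pass over all genes (adjusted p = 0.149). C1S and C1R passed in neither line, at 0.50 ± 0.39 and 0.86 ± 0.36 in A549 and -0.34 ± 0.39 and 0.20 ± 0.36 in HCC827.

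Among the membrane regulators, CD59 fell in HCC827 3D, at -0.86 ± 0.12 (adjusted p = 0.0149), with 9.996 and 10.34 in 3D against 10.89 and 11.15 in 2D, and stood at 0.03 ± 0.12 in A549 (0.895). The interaction was -0.88 ± 0.17 (0.198). Of its 5 probe sets 4 lay below 0 in HCC827, from -1.14 to -0.33, and 1 stood at 0.12. CD55 stood at 0.13 ± 0.24 in HCC827 and -0.13 ± 0.24 in A549 and passed in neither. CD46, a cofactor of factor I, gave no single answer. Its probe set of highest signal stood at 0.42 ± 0.15 in HCC827 (0.101) and -0.11 ± 0.15 in A549 (0.620). The other 11 ran from -1.43 to 0.17 in HCC827 and from -1.74 to -0.40 in A549. The 3 brightest lay above 0 in HCC827 and the 9 dimmer ones below. With the mean of its probe sets CD46 fell in 3D over both lines, by 0.88 (adjusted p = 0.0195). The RNA integrity measure moved with culture beside all these values, and its part in them was not tested.

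**Figure D3:**
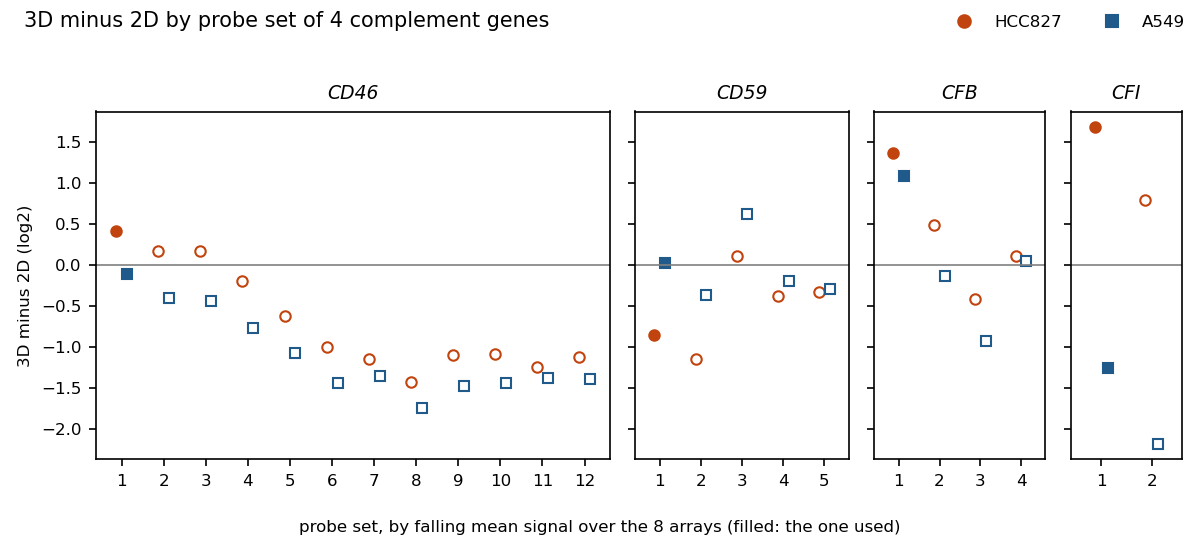
3D minus 2D difference (log2, vertical axis) of every probe set of CD46, CD59, CFB and CFI, ordered along the horizontal axis by falling mean signal, with circles for HCC827 and squares for A549, each a mean of 2 arrays minus a mean of 2 arrays, and filled symbols for the probe set used. CD46 runs from 0.42 to -1.43 in HCC827 with the probe set chosen, and both CFI probe sets lie above 0 in HCC827 and below 0 in A549.

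Counted over the 9 genes, 2 were higher and 1 lower in 3D over both lines, where 47.5% of tested genes passed, 30.4% higher and 17.1% lower, and the median was 0.21, against 0.12 over all tested genes. In HCC827 2 were higher (CFB, CFI) and 1 lower (CD59), where 33.4% of tested genes passed, 19.7% higher and 13.7% lower. In A549 3 were higher (C3, C5, CFB) and 1 lower (CFI), where 22.3% passed, 16.3% higher and 6.01% lower. The 3D and 2D arrays did not overlap in 5 of 9 genes in HCC827 and 7 of 9 in A549, against 67.2% and 79.7% of tested genes, and over both lines in 0 of 9, against 29.2%. Among the 14 other complement genes, 4 were higher and 2 lower in 3D over both lines, against 30.4% and 17.1% of all tested genes. C5AR1, the C5a receptor, was higher by 0.92 ± 0.06 (adjusted p = 0.00418), CFD by 0.89 ± 0.16 (0.0139), C1RL, a C1r-like protease, by 0.78 ± 0.14 (0.0152) and C2, the classical pathway counterpart of factor B, by 0.43 ± 0.11 (0.0348). C1QBP, a mitochondrial protein that binds C1q, was lower at -1.06 ± 0.15 (0.00844), and the chaperone CALR at -0.75 ± 0.17 (0.0267). C5AR1 was above the array median only on 2 arrays, both 3D controls, so the filter took it on 3D values. In A549 cyclic loess left 1 call and testing with no filter 2 of the 4: C5 (adjusted p = 0.0507) and CFI (0.0707) lost theirs under cyclic loess, as did CFB (0.0562), and C5 (0.0543) and CFI (0.0523) with no filter. Every culture call on the 9 genes was lost without any 1 of the 4 A549 arrays (3D gefitinib, 3D control, 2D gefitinib or 2D control), when the spread came from HCC827 alone.

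Gefitinib was compared within each line and culture, 1 array against 1, so these differences have no error of their own. In HCC827 CFB differed by -0.82 in 3D and, as labelled, by -1.40 in 2D; with the labels of the 2D pair turned, the 2D value reads 1.40, opposite to 3D. In 3D it was the only 1 of the 9 genes at least 0.5 lower, and 0 were at least 0.5 higher; 12.9% of tested genes were that much lower and 4.03% higher, 16.9% in all. CD55 stood at 0.46, CD59 at -0.34, CD46 at -0.27, C5 at 0.22 and CFI at 0.18, and C3, C1S and C1R lay between -0.09 and 0.04. The 4 CFB probe sets gave -0.82, -0.68, -0.62 and -0.41 in this pair and -1.40, -1.19, -1.58 and 0.05 in the 2D pair, the last being the dimmest. In a fit without the HCC827 2D arrays, with the spread from A549 alone, CFB (adjusted p = 0.00746) and CD55 (0.0202) passed, where 27.2% of tested genes did.

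In HCC827 2D, as labelled, 5 of the 9 genes were at least 0.5 lower on the gefitinib array and 0 that much higher, against 8.28% and 7.12% of tested genes, 15.4% in all. With the labels of this pair turned, 5 were at least 0.5 higher and 0 that much lower, against 8.28% and 7.12%. As labelled, C1S stood at -1.50, CFB at -1.40, C1R at -1.38, C3 at -0.84 and CFI at -0.72. CD55 stood at -0.40, CD59 at -0.26, C5 at 0.15 and CD46 at 0.16. All 3 C1R probe sets were lower, at -1.58 to -1.15. IL6, the cytokine interleukin 6, which induces acute-phase genes in the liver, differed in this pair too, with 7.25 on the gefitinib array and 9.09 on the control array. ERK readouts ran the other way there, with CCND1 at 2.51 and ETV5 at 2.52. The part of either in the complement values was not tested.

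In A549 the differences were smaller and mostly above 0. In 2D CFB (0.74), C1R (0.81) and C1S (0.66) were at least 0.5 higher on the gefitinib array, 3 of 9, against 0.671% of tested genes, and 0 were that much lower, against 0.252% (0.922% either way). In 3D C5 (0.56) was, 1 of 9, against 0.461%, and 0 were that much lower, against 0.26% (0.721% either way). CFB, C1R and C1S stood at 0.19, 0.24 and 0.11. CD55 was lower in both cultures, at -0.39 and -0.43, and CD59 higher, at 0.24 and 0.22, in 3D and 2D. These 2 genes had gefitinib and control arrays that did not overlap in A549, and C1S and C1R did not overlap in HCC827, 2 of 9 each, against 13.5% and 12.1% of tested genes.

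Averaged over cultures, limma called 0 of the 9 genes for gefitinib in HCC827, where 0.0% of tested genes passed, and 0 in A549, where 0.0% passed. Before adjustment limma had 1 gene in each line at p under 0.05, against 487 of 11926 tested genes in HCC827 and 86 in A549. These were CFB in HCC827, at -1.11 ± 0.22 (adjusted p = 0.926), and C5 in A549, at 0.41 ± 0.13 (adjusted p = 1.0). The difference between lines was -1.58 ± 0.32 for CFB (adjusted p = 0.997), -1.26 ± 0.51 for C1R and -1.16 ± 0.55 for C1S. For that interaction 0 of 9 passed, and 0.0% of tested genes did. At an unadjusted p under 0.05 there were 2 of 9, against 348 of 11926 tested genes. For culture by line 0 of 9 also passed, against 0.0%. Unadjusted there were 3 of 9, against 1696 of 11926 tested genes.

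**Figure D4:**
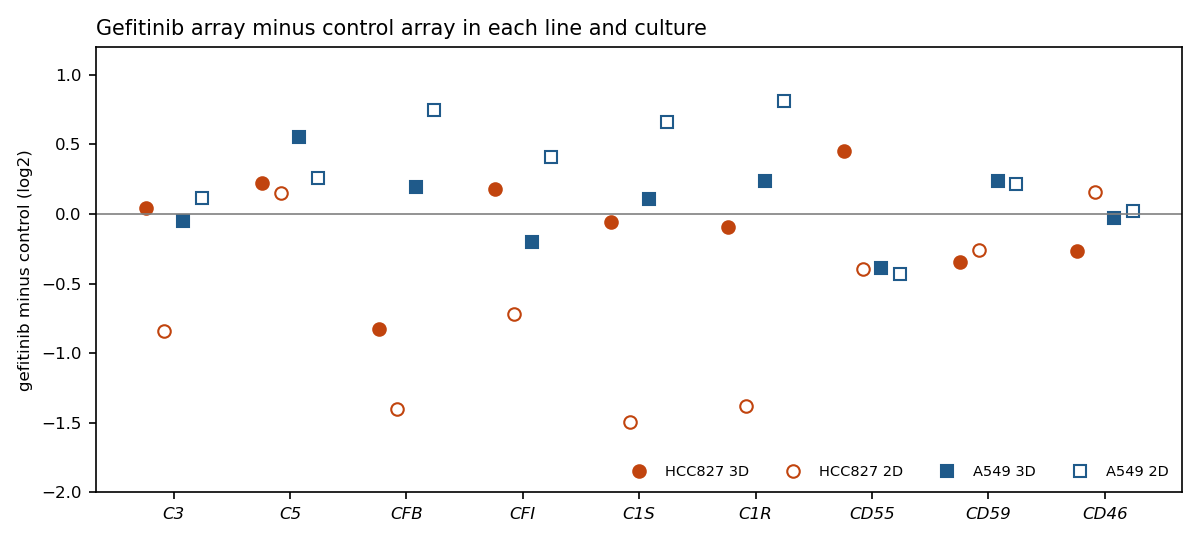
Gefitinib array minus control array (log2, vertical axis) for the 9 complement genes (horizontal axis), with circles for HCC827 and squares for A549, filled for 3D and open for 2D, each 1 array minus 1 array. With the arrays as labelled, CFB lies below 0 in both HCC827 pairs and above 0 in both A549 pairs, and the open HCC827 circles of C1S and C1R lie near -1.4.

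The genes whose levels were most like those of the complement genes over the 8 arrays were named by Pearson's r, as a description. The arrays share their lines, and r over all 8 takes in that difference. The closest gene was BMERB1 for C3, PYCARD for C5, UBE2A for C1S, FBXL17 for C1R, A1CF for CD55 and CYFIP1 for CD59. For CFI the 3 closest genes were FXYD3 (r = 0.98), OAZ3 (0.94) and PCDHA2 (0.94). For CFB they were SLC25A14 (0.97), RPL7A (0.97) and QRICH1 (0.97), and for CD46 PDIA4 (0.96), MSH5 (0.96) and RPGRIP1L (0.93).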

How the data were processed

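The authors deposited log2 signals for 49495 probe sets on each of 8 arrays. The submitters' processing notes name RMA and R 3.2.1, and no genome build was stated there. The number of arrays limits precision. The array annotation gave 45278 probe sets 1 gene symbol, 1333 several and 2782 none; 102 were controls. Of the 45278, 45208 matched RefSeq and took its symbol. Genes were read from the probe set of highest mean, and those above the array median on at least 2 arrays were tested.

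A model with line, culture, treatment, line by culture and line by treatment (6 coefficients, 2 residual degrees of freedom, 2.36 from the prior) was fitted by lmFit and eBayes (limma 3.58.1, R 4.3.3) with a variance trend, and p-values were adjusted by Benjamini-Hochberg over 11926 genes, two-sided. With 1 array per condition, the residual measures how the gefitinib difference changes between cultures, not scatter of replicates, and p-values measure that alone. Single pairs were read at a size of 0.5 log2.

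The genes, lists and naming rule were chosen with earlier results of these data known. All 9 genes are named in every comparison; of other lists, up to 4 genes of largest difference past the threshold; of the marker lists, those of line and ERK signalling; and the 3 genes of highest r per member. The 4 complement lists, the marker lists and a list of inducers of complement genes were used. Some genes of these lists are not reported here.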

Additional observations from a re-analysis of the deposited data

Results flagged for a closer look

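Complement genes whose pairs all moved 1 way in HCC827 and all the other way in A549 were picked out by their signs alone. For culture these were CFI (HCC827 minus A549, 2.94), CD59 (-0.88) and CD46 (0.53). For gefitinib they were CFB (-1.58), C1R (-1.26), C1S (-1.16) and CD59 (-0.53). None of the 7 passed the interaction test over all genes, with adjusted p of 0.149 to 0.997. The CD46 signs differ between lines for 3 of its 12 probe sets, and each gefitinib value includes the HCC827 2D arrays as labelled, whose ERK readouts run opposite to those of 3D. The culture flag of CD59 holds on the probe set used alone. Its other probe sets gave -1.14, 0.12, -0.38 and -0.33 in HCC827 and -0.37, 0.63, -0.20 and -0.29 in A549, the same sign in both. The other C1R probe sets stood at 0.21 and 0.04 in the HCC827 3D gefitinib pair, so the C1R flag also rests on the probe set. For CFB the other probe sets stood at 0.05, -0.29 and 0.08 in the A549 3D gefitinib pair. The dimmest of them stood at 0.05 in HCC827 2D and -0.04 in A549 2D. Those of CD59 stood at -0.56, -0.20, 0.06 and 0.04 in the HCC827 3D gefitinib pair. The gefitinib flags of CFB and CD59 thus hold on some of their probe sets and not on all.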

How the results depend on the processing

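Of 17 calls on the 9 genes, all kept their direction under every setting run. In some settings the direction could not change. Another filter, a robust variance prior or an additive fit leaves a difference as it was. So does leaving out arrays of the other line, for a difference within 1 line. The largest-variance probe set and a robust variance prior lost none, nor did leaving out any 1 HCC827 array. Cyclic loess, which shifted the median of the HCC827 3D gefitinib array by 0.22, lost 4, the mean of probe sets 3, no filter 2 and an additive fit 2. Leaving out 1 A549 array lost 11 or 12 of them. The number called in 3D against 2D over both lines was 6 with the largest-variance probe set and 0 to 8 with 1 array left out; in HCC827 it was 5 with cyclic loess and 0 to 7; in A549 it was 1 with cyclic loess, 2 with no filter and 0 to 6. For culture by line it was 0 to 6 with 1 array left out (4 or 6 without any 1 HCC827 array). For gefitinib in HCC827 it was 2 without both HCC827 2D arrays and 0 to 6 with 1 array left out, and for gefitinib by line 3 and 0 to 6. In the HCC827 3D pair, 3 genes differed by at least 0.5 with the largest-variance probe set and 2 with cyclic loess. In the main setting 16.9% of tested genes did so. Leaving out an HCC827 array, or both of its 2D arrays, left the spread to A549 alone. No share of all tested genes under the same setting stands beside these counts, so they are not a result about the 9 genes. The causes were not tested.

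Values that passed with the other sign were, for 3D against 2D over both lines, CFI at -0.69 (largest-variance probe set), CD46 at -0.88 (mean of probe sets) and -1.59 (largest variance), and with 1 array left out C1S (-0.28 to 0.44) and CD55 (-0.21 to 0.21); in HCC827, CD46 at -1.43 (largest variance); and for gefitinib in HCC827, CD55 (-0.40 to 0.46 with 1 array left out). With 1 array left out the actin measure differed by 2.01 to 2.34 and that of GAPDH by 0.71 to 1.05. An additive fit gives no value within a line. No paired analysis was possible because the labels carry no replicate numbers to use as a block; arrays matched on line, culture and treatment are compared through those terms of the fit. Signal over background limits C5 in HCC827, and CFD, VTN and C4BPA lay below the array median on some HCC827 arrays.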

Other observations

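Genes known to induce or relay the induction of complement genes, a list of cytokines, receptors and transcription factors, were read the same way: of 15 tested, 5 were higher and 6 lower in HCC827, against 22.0% and 26.1% of all tested genes, with a median of -0.12 against -0.03. JAK1, a kinase of interferon and interleukin 6 signalling, was higher by 1.56 ± 0.11 (adjusted p = 0.00133) and IL6 by 1.18 ± 0.33 (0.0454), while IL1R1, the interleukin 1 receptor, was lower at -1.19 ± 0.14 (0.00408) and IFNGR1, an interferon gamma receptor chain, at -0.99 ± 0.09 (0.00202). The IL6 mean rests in part on the array labelled HCC827 2D control, at 9.09, against 7.25 to 7.40 on the other HCC827 arrays, and IL6 was below the array median in A549.

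In 3D against 2D over both lines, 3 of the 15 were higher and 1 lower, against 30.4% and 17.1% of all tested genes, with a median of 0.15 against 0.12. CEBPD, a transcription factor of the acute-phase response, was higher by 0.92 ± 0.11 (adjusted p = 0.00633), RELA, an NF-kB subunit, by 0.78 ± 0.09 (0.00623) and TNFRSF1A, a TNF receptor, by 0.53 ± 0.14 (0.0379), and CEBPB was lower at -0.55 ± 0.09 (0.0119). In the gefitinib pairs CEBPD stood at -0.79 in HCC827 3D and -0.53 in HCC827 2D as labelled, and at 0.34 and 0.64 in A549 3D and 2D. These signs were not particular to CEBPD: RELA, IFNGR1, IFNGR2 and JAK1 had them too. Among the inducers tested, IL1A, IL6, IL6R, IL6ST, TNFRSF1A, IL1R1, STAT3 and IRF1 changed sign between the HCC827 pairs. The relation of CEBPD to CFB was not tested.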
